A study of Mus musculus with 67 samples.

Results

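The genes described are the serpins, a family of protease inhibitors, as measured in 3 inbred mouse strains of different blood pressure. Members were the probe sets whose symbol in the platform's probe-to-gene table starts with Serpin, with Serpina3n left out. The rule gave 46 probe sets of 43 genes, of 38385 probe sets and 19147 named genes in all. Clade A, the antitrypsin-like secreted serpins, had 14 probe sets of 14 genes, and clade B, the ovalbumin-like serpins that mostly stay inside cells, had 24 probe sets of 22 genes. Clades D, E, F, G and H had 1 probe set each, and clade I had 3 probe sets of 2 genes. Serpinb5, Serpinb9 and Serpini1 had 2 probe sets each. Serpinc1, Serpinf1 and the antitrypsin paralogs Serpina1a to Serpina1d were not analysed here.

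The strains were hypertensive BPH/2J, with a stated systolic pressure of 142 ± 5 mmHg, hypotensive BPL/1J with 69 ± 1.7 mmHg and normotensive BPN/3J with 94 ± 6 mmHg, the kind of error not being given. All animals were males of 12 weeks on standard chow, and no treatment is named. Liver and heart had 5 single-colour arrays of every strain, kidney had 5 BPH, 4 BPL and 5 BPN arrays, and aorta had 9 BPH, 9 BPL and 5 BPN arrays. The lines were bred apart for pressure, so pressure and other inherited differences between them cannot be told apart. Which arrays share an animal is not stated, and the design text names 5 mice of a strain, fewer than the 9 aortas. The p-values therefore speak of array-to-array spread, which may include technical spread.

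Values are log2 intensities after the authors' RMA normalisation. Aorta RNA was amplified by another protocol than the rest, so no level is set against that of another tissue. A member was called when its adjusted p in limma, over all 38385 probe sets, was below 0.05, and "higher", "lower", "rose" and "fell" are kept for such members. Differences are log2 values ± SE. No detection calls were used. Liver arrays had a lower quartile of 2.67 to 2.76 and a median of 3.76 to 3.85, and aorta arrays of 2.90 to 3.03 and 4.66 to 4.73. Heart arrays had 3.20 to 3.32 and 4.62 to 4.72, and kidney arrays 3.49 to 3.64 and 4.90 to 4.98. The means of 16 members in liver, 21 in aorta, 16 in heart and 19 in kidney lay under the lower quartile in all 3 strains, and no fold is given within a tissue for a strain mean that low.

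Most serpins present a flexible loop as bait. The target protease cuts the loop, becomes covalently bound and is dragged across the serpin in a distorted form, so that each inhibitor is spent on 1 protease. Liver secretes many clade A serpins and the antithrombin, heparin cofactor, antiplasmin and C1 inhibitor type serpins into plasma, where they hold back leukocyte elastase, clotting, fibrin breakdown and complement. Several members inhibit nothing: Serpina6 and Serpina7 carry cortisol-type steroids and thyroxine, and Serpinh1 is a chaperone of collagen.

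Tissue identity held in the arrays. The smooth muscle transcripts Acta2, Myh11, Tagln and Cnn1 ran from 12.02 to 13.09 in aorta, the heart muscle transcripts Myh6, Actc1 and Tnnt2 from 13.41 to 14.30 in heart, the kidney transcripts Umod and Kap from 13.14 to 14.28 in kidney, and Alb from 14.12 to 14.24 in liver. Every aorta also held fat transcripts, with the adipocyte transcript Adipoq at 11.13 to 12.68 and the brown fat transcript Ucp1 at 9.84 to 13.11. The heart muscle transcripts Myh6 and Actc1 reached 11.02 and 10.38 in aorta. Fat transcripts varied widely between arrays in heart (Adipoq 3.42 to 9.83, Ucp1 3.84 to 10.68) and in kidney (Adipoq 3.28 to 9.39, Ucp1 4.70 to 9.28). What part fat and heart muscle transcripts had in the differences in these tissues was not tested, and no refit chose arrays by their fat transcripts. Some arrays held transcripts of liver or adrenal. Alb reached 12.14, 12.00 and 11.69 in hearts BPH 1, BPL 4 and BPN 1, and 10.69 in aorta BPL 26. The adrenal transcript Cyp11a1 reached 8.77, 8.87 and 9.57 in kidneys BPL 1, BPN 4 and BPN 5, against 3.66 to 4.84 in the other 11 kidneys. Refitted without these arrays, after seeing the data, all 13 member calls in kidney and all 15 in aorta held, and 9 of 11 in heart did; the exceptions were Serpinb6b and Serping1 between BPL and BPN.

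Of the 46 members, 25 were called in no strain contrast of any tissue, 15 in 1 tissue, 4 in 2 tissues and 2 in 3 tissues. The like counts over all probe sets were not made, and shares are given for each contrast below. The pair called in 3 tissues was Serpina1e and Serpinb6b. The members' median log2 difference lay between -0.05 and 0.06 over the 12 contrasts, beside -0.01 to 0.01 for all probe sets. The differences lay in single genes, among them Serpina1e in liver and aorta, Serpinb1c in heart and Serpinb8 in kidney.

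Sequence upstream of the 5 antitrypsin paralogs is shown because the main finding is on Serpina1e, 1 of these near copies. The windows are from RefSeq (GRCm38.p6), 5′ to 3′ on the gene's strand, and end before the annotated start; capitals mark GTTAAT, a core of sites for the hepatocyte factor HNF1.
Serpina1a, chr12:103863626-103863685, minus strand: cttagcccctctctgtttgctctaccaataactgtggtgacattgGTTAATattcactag
Serpina1b, chr12:103738201-103738260, minus strand: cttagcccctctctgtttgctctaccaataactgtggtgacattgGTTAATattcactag
Serpina1c, chr12:103904963-103905022, minus strand: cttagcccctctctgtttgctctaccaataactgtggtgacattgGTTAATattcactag
Serpina1d, chr12:103773635-103773694, minus strand: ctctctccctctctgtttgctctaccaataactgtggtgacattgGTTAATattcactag
Serpina1e, chr12:103956961-103957020, minus strand: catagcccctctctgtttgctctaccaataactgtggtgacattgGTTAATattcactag

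Over these 60 bases Serpina1a, Serpina1b and Serpina1c were identical, Serpina1e differed from them at 1 base, and Serpina1d differed from them at 4 and from Serpina1e at 5. The reference is of another strain than those measured. The probe sequences were not used here, so the signal printed as Serpina1e may hold transcripts of the other paralogs, and which copy carried a difference is uncertain.

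In liver, Serpina1e, 1 of the mouse alpha-1 antitrypsin paralogs, was far higher in BPH than in both other strains. Its log2 intensity was 14.25, 14.32, 14.42, 14.47 and 14.13 in BPH livers 1 to 5, 12.06, 12.08, 11.89, 12.10 and 12.08 in BPL, and 11.99, 12.13, 11.96, 12.13 and 12.00 in BPN. Every BPH liver lay above every BPL and BPN liver, and BPL and BPN overlapped throughout. The difference was 2.28 ± 0.07 for BPH against BPN (4.85-fold, adjusted p = 8.04e-14) and 2.28 ± 0.07 against BPL (4.85-fold, adjusted p = 5.83e-14), while BPL and BPN differed by 0.00 ± 0.07. Among all probe sets of an array, Serpina1e ranked first in 4 BPH livers and at rank 2 in BPH 5, against ranks 120 to 151 in BPL and BPN livers. The 14.47 of BPH 4 was the highest value of the whole table, and whether such bright probe sets near a ceiling was not tested.

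The same strain difference was seen in aorta. Serpina1e there had a lowest, median and highest value of 7.27, 8.36 and 9.44 in the BPH aortas and of 2.74, 4.08 and 4.80 in the BPL aortas. It had 4.62, 4.97, 4.16, 3.56 and 3.72 in the 5 BPN aortas. Every BPH aorta lay above every BPL and BPN aorta. The means of BPL and BPN lay below the array median. BPH was above BPN by 4.23 ± 0.36 (18.7-fold, adjusted p = 3.17e-09) and above BPL by 4.48 ± 0.30 (22.3-fold, adjusted p = 2.40e-11). With 16 added to the intensities before taking logs, the differences were 3.37 from BPN and 3.50 from BPL, both still called. BPL minus BPN was -0.25 ± 0.36 (adjusted p = 0.775). Alb was at 2.58 to 3.91 in the BPH aortas, while aorta BPL 26, with Alb at 10.69, had Serpina1e at 4.32. Without BPL 26 the BPH difference from BPL was 4.53. The neutrophil transcript S100a9 was at 8.74 to 12.40 in BPH aortas, 8.09 to 9.30 in BPL and 8.04 to 10.09 in BPN, with overlap. Ngp was at 4.84 to 7.55 in BPH, 4.44 to 5.28 in BPL and 4.79 to 6.38 in BPN. Over the aortas of all strains S100a8 was at 7.35 to 11.67, Camp at 3.69 to 6.01 and Elane at 1.61 to 3.16. The part of neutrophil transcripts in the result was not tested. In these whole-tissue samples, more cells of a type and more RNA per cell cannot be told apart.

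**Figure D1:**
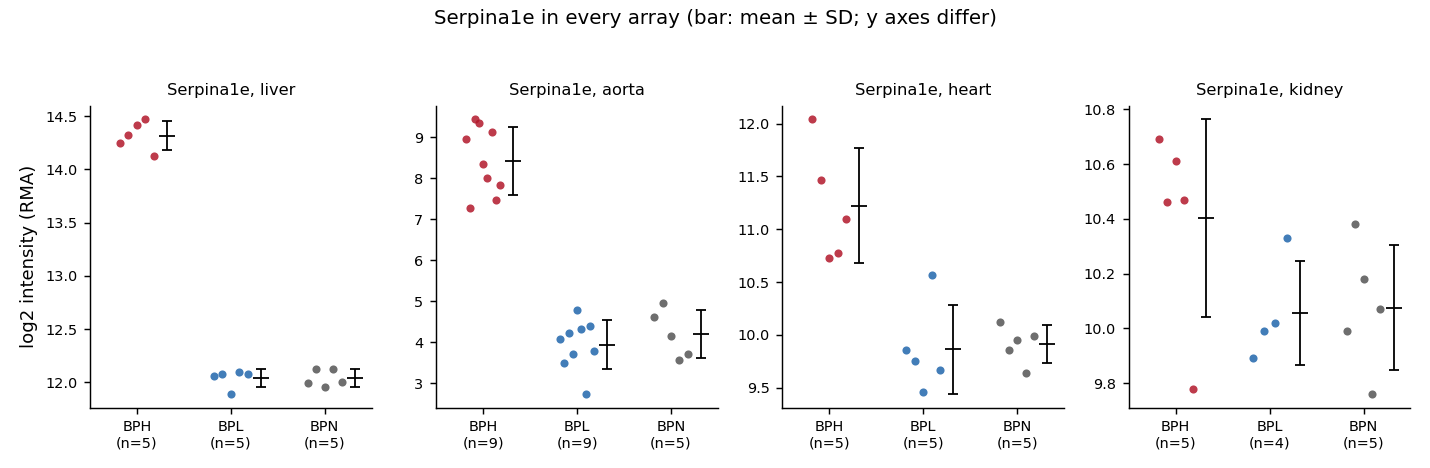
Log2 intensity of Serpina1e in each array (points) of liver, aorta, heart and kidney, by strain from BPH through BPL to BPN, with the mean and SD of each group (bar); each panel has its own y axis. In liver BPH arrays lie between 14.13 and 14.47, above all BPL and BPN arrays, and in aorta between 7.27 and 9.44, while in kidney the strains overlap.

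In heart, Serpina1e was at 12.04, 11.47, 10.73, 10.78 and 11.10 in BPH hearts 1 to 5, at 9.86, 9.75, 9.46, 10.57 and 9.67 in BPL, and at 10.12, 9.86, 9.95, 9.64 and 9.99 in BPN. All BPH hearts lay above all BPL and BPN hearts. BPH exceeded BPN by 1.31 ± 0.22 (2.48-fold, adjusted p = 7.26e-04) and BPL by 1.36 ± 0.22 (2.57-fold, adjusted p = 4.09e-04). Serpina1e was highest in each strain in the heart with the most Alb, namely BPH 1, BPL 4 and BPN 1. Without these 3 hearts the BPH difference was 1.16 from BPN and 1.34 from BPL, and both stayed called. At like Alb levels, BPH 3 and BPH 4 (Alb 10.06 and 9.91) had Serpina1e at 10.73 and 10.78. It was at 9.86, 9.64 and 9.99 in BPN 2, BPN 4 and BPN 5 (Alb 10.06, 9.84 and 10.01) and at 9.67 in BPL 5 (Alb 9.89). Summed over the 4 hepatocyte markers with a probe set, linear intensity ran from 1073 to 4909 in BPH, 871.6 to 4569 in BPL and 1073 to 3646 in BPN hearts. BPH livers themselves had more Serpina1e than BPN livers, with Alb at 14.12 to 14.24 in all livers. A comparison at like Alb thus cannot decide the share of heart Serpina1e that came with hepatocyte transcripts, and that share was not tested.

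**Figure D2:**
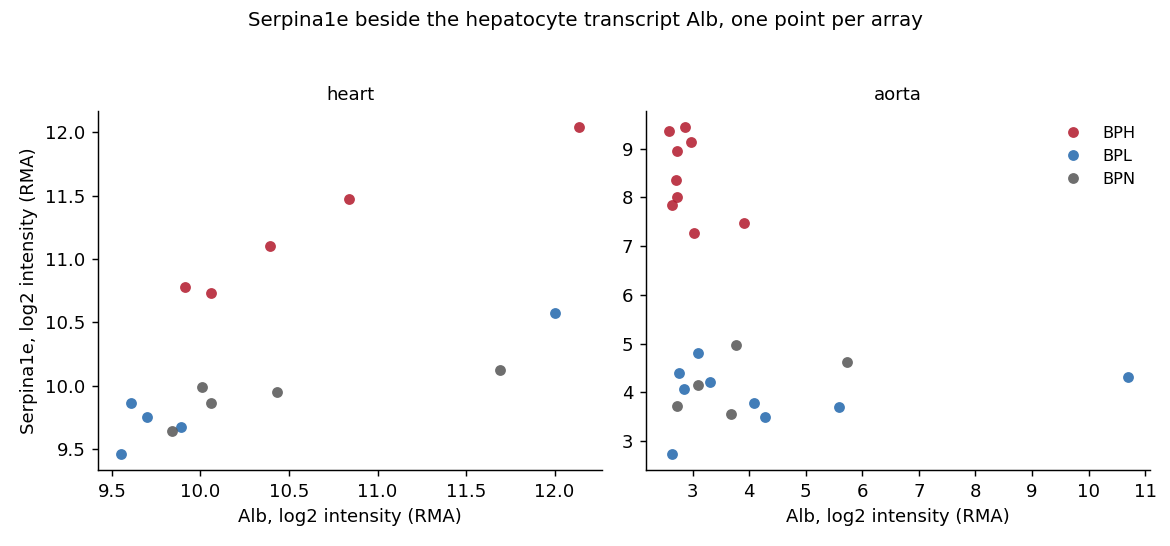
Log2 intensity of Serpina1e (y) against that of Alb (x), 1 point per array, in heart and in aorta, coloured by strain. In heart the BPH points lie above the BPL and BPN points at like Alb; in aorta BPH has high Serpina1e at Alb between 2.58 and 3.91, and the BPL aorta with Alb at 10.69 has low Serpina1e.

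In kidney, Serpina1e was not called. It was at 10.69, 10.46, 10.61, 10.47 and 9.78 in BPH kidneys 1 to 5, at 9.89, 9.99, 10.02 and 10.33 in the 4 BPL kidneys and at 9.99, 10.38, 10.18, 9.76 and 10.07 in BPN. The strains overlapped, with BPH 5 among the lowest kidneys. The difference from BPN was 0.32 ± 0.15 (adjusted p = 0.274), and the joint fit placed it below the liver difference by 1.95 ± 0.41 (adjusted p = 0.00119). Of the 19 named genes nearest to Serpina1e on chromosome 12, most of them serpins of the same cluster, 6 were called between BPH and BPN in liver, 3 in aorta, 1 in heart and 4 in kidney. Of all probe sets, 7.14%, 9.15%, 7.02% and 7.05% were called in these contrasts. A neighbour counted as called when any of its probe sets was, so the counts and shares are not strictly alike. The counts also repeat member calls given in other paragraphs. Those are Serpina11, Serpina12, Serpina5 and Serpina3f in liver, Serpina9 and Serpina5 in aorta, and Serpina1f, Serpina3b and Serpina10 in kidney.

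In liver, 7 members were called between BPH and BPN (15.2% of members, against 7.14% of all probe sets). Of these, 3 were higher and 4 lower (3.29% and 3.85% of all probe sets), and 6 had arrays that did not overlap (5.28%). Between BPL and BPN 1 was called (2.17%, against 7.47%), with 0 higher and 1 lower (3.77% and 3.7%) and 0 without overlap (5.52%). Between BPH and BPL 4 were called (8.7%, against 5.77%), 2 higher and 2 lower (2.68% and 3.09%), all 4 without overlap (4.77%). The largest fall in BPH was in Serpina11, a liver serpin of the same gene cluster. It was at 9.82, 9.89, 9.56, 9.92 and 9.73 in BPH livers, at 11.21, 11.10, 11.29, 11.36 and 11.28 in BPL and at 11.39, 11.38, 11.43, 11.40 and 11.44 in BPN. Every BPH liver lay below every BPL and BPN liver. The difference was -1.63 ± 0.07 for BPH against BPN (3.09-fold, adjusted p = 1.16e-11) and -1.46 ± 0.07 against BPL (2.75-fold, adjusted p = 4.46e-11).

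Serpina11 and Serpina7, the next liver serpin below, are shown with the stretch before their starts, again from RefSeq (GRCm38.p6). Capitals mark TTCNNNGAA, the core of STAT sites, in Serpina11 and GTTAAT in Serpina7.
Serpina11, chr12:103989979-103990038, minus strand: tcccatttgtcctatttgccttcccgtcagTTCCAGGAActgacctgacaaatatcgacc
Serpina7, chrX:139085279-139085338, minus strand: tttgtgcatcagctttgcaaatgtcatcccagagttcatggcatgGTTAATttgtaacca

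In the 250 bases before the start, on both strands, GTTAAT (or ATTAAC) was held by 6.43% and TTCNNNGAA by 7.02% of 32851 promoters. Of the 38 member genes with a promoter in that table, 5 held GTTAAT and 7 held TTCNNNGAA. A match is a run of letters and says nothing of what binds there.

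Serpina7, thyroxine-binding globulin, lies on the X chromosome and varied most among liver serpins. It was at 6.95, 7.36, 6.54, 8.21 and 8.34 in BPH livers, at 4.49, 4.57, 5.42, 6.12 and 5.37 in BPL and at 6.08, 5.99, 6.84, 6.39 and 6.72 in BPN. BPH livers all lay above BPL livers, while BPN overlapped with both. BPH exceeded BPL by 2.28 ± 0.33 (4.87-fold, adjusted p = 1.27e-04). BPL was lower than BPN, with a difference of -1.21 ± 0.33 (2.31-fold, adjusted p = 0.0285), which was no longer called on leaving out BPL 1, BPL 2, BPN 3, BPN 4 or BPN 5 (adjusted p up to 0.0841), or with a pseudocount of 16 (adjusted p = 0.0907). BPH minus BPN was 1.08 ± 0.33 (adjusted p = 0.0564).

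Serpina12 (vaspin), an inhibitor of a kallikrein, known as an adipokine, was higher in BPH livers, at 5.88, 6.36, 6.19, 5.68 and 5.71, with BPL at 6.63, 5.80, 6.25, 4.99 and 5.32 and BPN at 5.19, 5.13, 4.80, 5.35 and 4.71. BPH livers all lay above BPN livers, and BPL spanned both. BPH minus BPN was 0.93 ± 0.24 (1.9-fold, adjusted p = 0.0192), which was not called without BPH 2 (adjusted p = 0.0597) or with a pseudocount of 16 (adjusted p = 0.052). BPL minus BPN was 0.76 ± 0.24 (adjusted p = 0.057). The summed adipocyte markers were low in every liver, at 71.52 to 79.97 in BPH, 63.82 to 80.15 in BPL and 68.04 to 75.04 in BPN.

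Serpina3f, of the mouse antichymotrypsin-like group, was at 5.02, 5.22, 5.10, 5.00 and 4.99 in BPH livers, at 4.81, 4.88, 4.25, 4.98 and 4.78 in BPL and at 4.78, 4.73, 4.46, 4.57 and 4.73 in BPN. BPH lay above BPN throughout, by 0.41 ± 0.11 (adjusted p = 0.0262). Serpinb6b, an inhibitor of granzyme A in mice, was at 4.12, 4.03, 4.40, 3.94 and 4.15 in BPH, at 4.55, 4.44, 4.79, 4.62 and 4.88 in BPL and at 4.96, 4.44, 4.51, 4.96 and 4.67 in BPN. It was lower in BPH, with differences of -0.58 ± 0.12 against BPN (1.49-fold, adjusted p = 0.00299) and -0.53 ± 0.12 against BPL (1.44-fold, adjusted p = 0.00682), with no overlap in either comparison. Serpinb9d, a relative of the granzyme B inhibitor Serpinb9, was at 3.51, 4.37, 4.17, 4.37 and 4.37 in BPH, 4.18, 4.47, 4.37, 4.37 and 4.28 in BPL and 4.75, 4.55, 4.66, 4.52 and 4.58 in BPN. BPH was below BPN throughout, with a difference of -0.46 ± 0.13 (adjusted p = 0.0353). Serpina5, the protein C inhibitor, averaged 3.44 ± 0.20 in BPH, 3.61 ± 0.13 in BPL and 3.81 ± 0.15 in BPN (SD, n = 5 each), with BPH lower than BPN by a difference of -0.37 ± 0.10 (adjusted p = 0.0237) and overlapping arrays. The call was lost on leaving out BPH 2, BPH 3, BPN 3 or BPN 4 for Serpina3f, any 1 of 5 arrays for Serpina5 (BPH 2, BPH 4, BPH 5, BPN 2, BPN 4) and any 1 of 5 for Serpinb9d (BPH 3, BPN 1, BPN 2, BPN 3, BPN 5). In the joint fit of all tissues Serpina3f (adjusted p = 0.186) and Serpinb9d (adjusted p = 0.139) were not called. Summed macrophage markers were 741 to 956.7 in BPH livers, 920.9 to 1000 in BPL and 1144 to 1364 in BPN; their part in the lower Serpinb6b was not tested.

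Of the other plasma serpins of liver, Serpina6, Serpina10, Serpind1, Serpinf2 and Serping1 did not pass the test. Serpina6, corticosteroid-binding globulin, was at 10.94, 11.10, 11.03, 11.26 and 11.24 in BPH, at 10.64, 10.69, 10.89, 11.31 and 11.10 in BPL and at 11.16, 10.75, 11.43, 11.18 and 11.38 in BPN, and BPH minus BPN was -0.07 ± 0.13. Serpina10, which blocks factor Xa together with protein Z, was at 11.24, 11.11, 11.16, 11.20 and 11.16 in BPH, at 11.30, 11.20, 11.35, 11.26 and 11.49 in BPL and at 11.28, 11.51, 11.37, 11.28 and 11.37 in BPN. BPH livers lay below BPN livers, with a difference of -0.19 ± 0.07 (adjusted p = 0.11), which was called with a pseudocount of 16 (adjusted p = 0.0412) and with limma-trend (adjusted p = 0.0301). Serpind1, heparin cofactor II, an inhibitor of thrombin, was at 11.24, 11.40, 11.29, 11.33 and 11.40 in BPH, at 11.44, 11.53, 11.50, 11.49 and 11.51 in BPL and at 11.32, 11.12, 11.44, 11.34 and 11.41 in BPN. The BPL difference from BPN was 0.17 ± 0.07 (adjusted p = 0.153), called with limma-trend (adjusted p = 0.047). Serpinf2, alpha-2 antiplasmin, the main inhibitor of plasmin, was at 11.83, 11.88, 11.83, 11.82 and 11.80 in BPH, at 11.99, 12.01, 11.99, 11.97 and 11.97 in BPL and at 11.91, 11.82, 11.85, 11.81 and 11.84 in BPN. Every BPL liver lay above every BPH and BPN liver. The difference was 0.14 ± 0.05 for BPL minus BPN (adjusted p = 0.129) and -0.15 ± 0.05 for BPH minus BPL (adjusted p = 0.109). Both were called with a pseudocount of 16 (adjusted p = 6.96e-04 against BPN and 3.63e-04 for BPH against BPL) and with limma-trend (adjusted p = 0.00624 and 0.00342). Serping1, the C1 inhibitor, averaged 12.26 ± 0.06 in BPH, 12.24 ± 0.07 in BPL and 12.26 ± 0.07 in BPN (SD, n = 5 each). These genes lay near the top of the array in every strain, with SDs between 0.02 and 0.28 within a strain.

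**Figure D3:**
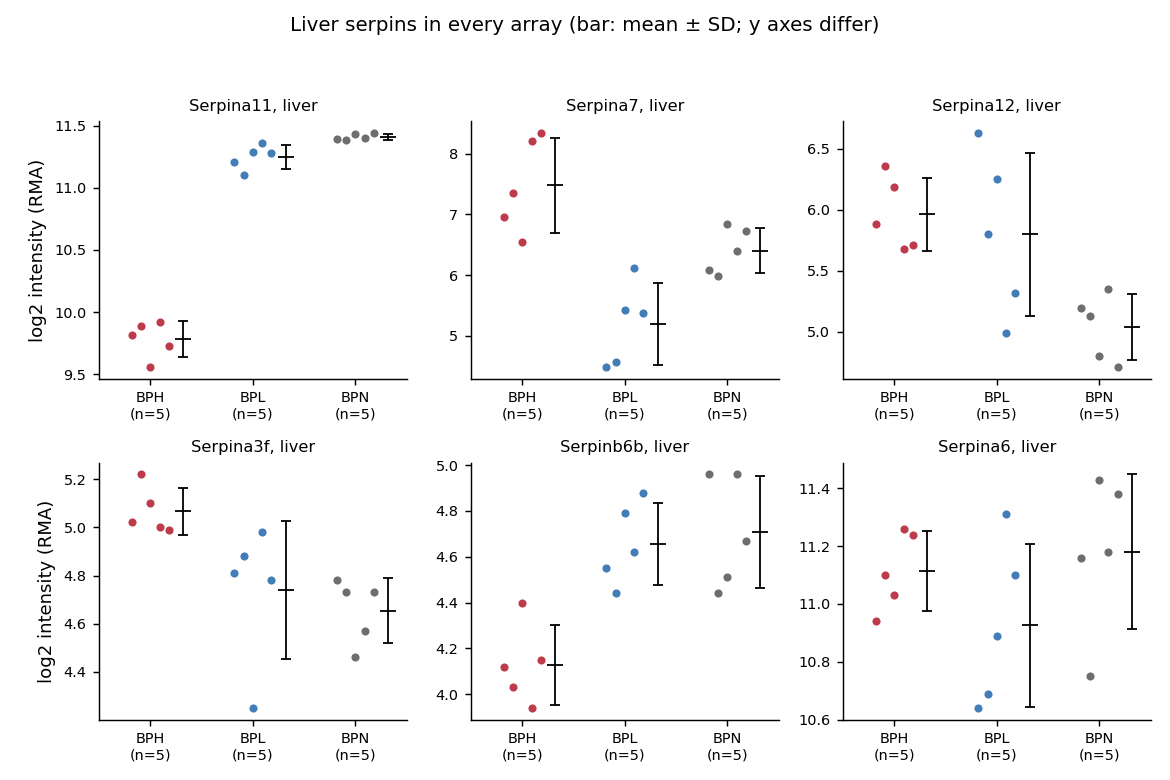
Log2 intensity of 6 clade A and B serpins in each liver array (points), by strain from BPH through BPL to BPN, with group mean and SD (bar); y axes differ between panels. Serpina11 is lower in all BPH livers, Serpina7 is lowest in BPL, and Serpina6 overlaps across strains.

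Among partners of these serpins in liver, 0 of 20 coagulation genes with a probe set rose and 3 fell in BPH against BPN. These were F12, the contact-phase factor XII (-0.78 ± 0.07), Thbd, the thrombin receptor thrombomodulin (-0.62 ± 0.13), and F7, factor VII (-0.33 ± 0.06), and the list's median was -0.01, beside 0.00 for all probe sets. Of 16 other plasma protease inhibitors, 1 rose in BPH, Wfdc2 (1.70 ± 0.15), and in BPL, where 2 rose and 1 fell, Wfdc2 differed by 1.79 ± 0.15. Of 14 factors that act on plasma serpin genes, 1 rose and 1 fell in BPH, Il6ra (0.63 ± 0.18) and Il6st (-0.50 ± 0.07), the chains of the interleukin-6 receptor. In BPL 2 rose and 2 fell. Of 5 male-biased liver genes with a probe set, 1 fell in BPH (Elovl3, -1.28 ± 0.14) and the same number fell in BPL. Of all probe sets in liver, 3.29% rose and 3.85% fell in BPH, and 3.77% rose and 3.7% fell in BPL, each against BPN.

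In aorta, 6 members were called between BPH and BPN (13% of members, against 9.15% of all probe sets). Of these, 2 were higher and 4 lower (4.45% and 4.7% of all probe sets), and 3 had arrays that did not overlap (4.31%). Between BPL and BPN 4 were called (8.7%, against 10.3%), 1 higher and 3 lower (5.14% and 5.2%), 3 of them without overlap (4.86%). Between BPH and BPL 5 were called (10.9%, against 11%), 3 higher and 2 lower (5.67% and 5.36%), 1 of them without overlap (3.01%). Beside Serpina1e, the largest difference was in Serpinb6b, which was lower in both BPH and BPL than in BPN. Its lowest, median and highest values were 9.20, 9.44 and 9.90 in BPH aortas and 9.48, 9.61 and 9.87 in BPL aortas, against 11.51, 11.33, 11.41, 11.48 and 11.35 in the 5 BPN aortas. The BPN aortas lay above all others, and BPH and BPL overlapped. The difference from BPN was -1.91 ± 0.11 in BPH (3.76-fold, adjusted p = 8.44e-13) and -1.75 ± 0.11 in BPL (3.37-fold, adjusted p = 4.83e-12).

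Serpinb9, which protects cells from granzyme B, went the same way in its brighter probe set. Values were 8.26, 8.55 and 8.69 (lowest, median, highest) in BPH and 8.43, 8.60 and 8.80 in BPL aortas, against 9.09, 9.07, 9.30, 9.21 and 9.04 in BPN. No BPH or BPL aorta reached a BPN aorta. Differences from BPN were -0.64 ± 0.08 in BPH (1.56-fold, adjusted p = 2.46e-06) and -0.53 ± 0.08 in BPL (1.44-fold, adjusted p = 3.31e-05). The second Serpinb9 probe set was not called and lay near the lower quartile, at means of 2.86 in BPH, 2.89 in BPL and 3.13 in BPN. Summed markers of T and B cells were 76.76 to 411.9 in BPH, 189.8 to 360.9 in BPL and 204.6 to 584.1 in BPN aortas. Of these markers, 4 of 4 were lower in BPH against BPN, beside 4.7% of all probe sets. Those of cytotoxic lymphocytes were 66.53 to 260.5 in BPH, 88.02 to 134.5 in BPL and 82.29 to 260.5 in BPN. The part of these cells, or of the fat in the aorta samples, in the lower Serpinb6b and Serpinb9 was not tested.

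Serpinh1 (HSP47), the chaperone that procollagen needs in the endoplasmic reticulum, was also lower in both strains. It ran over 10.94, 11.12 and 11.38 (lowest, median, highest) in BPH and 10.95, 11.04 and 11.23 in BPL aortas, against 11.34, 11.28, 11.45, 11.53 and 11.53 in BPN. BPL lay below BPN throughout, and BPH overlapped with it. The difference from BPN was -0.29 ± 0.08 in BPH (adjusted p = 0.0182) and -0.38 ± 0.08 in BPL (1.3-fold, adjusted p = 0.0016). The BPH call was lost without BPN 14 or BPN 15 (adjusted p up to 0.0631). Of 11 procollagen partners with a probe set, 0 rose and 2 fell in BPH, and 0 rose and 7 fell in BPL, with a median of -0.06 in BPH and -0.28 in BPL (all probe sets 0.00 and 0.01). The falls in BPL included the prolyl hydroxylase subunits P4ha1 (-0.59 ± 0.15) and P4ha2 (-0.56 ± 0.11), the lysyl hydroxylase Plod2 (-0.56 ± 0.14) and the chain Col5a1 (-0.38 ± 0.10). Of 4 smooth muscle markers, 0 fell in BPH and 1 in BPL, and of 4 fibroblast markers, 1 fell in BPH and 2 in BPL. Their part in the lower Serpinh1 was not tested. Of all probe sets in aorta, 4.45% rose and 4.7% fell in BPH, and 5.14% rose and 5.2% fell in BPL, each against BPN.

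Serping1 was among the brightest members in aorta and was not called. It ran over 12.73, 12.83 and 12.90 (lowest, median, highest) in BPH and 12.49, 12.71 and 12.81 in BPL aortas, against 12.96, 12.88, 12.91, 12.64 and 12.85 in BPN. BPL minus BPN was -0.16 ± 0.07 (adjusted p = 0.141), which was called with a pseudocount of 16 (adjusted p = 0.038) and with limma-trend (adjusted p = 0.0326).

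Apart from Serpini1, described below, dim members made up the other aortic calls. Serpina12 was higher in BPL, at 3.32, 4.01 and 4.30 (lowest, median, highest), against 3.18, 3.33 and 4.02 in BPH and 3.00, 3.27 and 3.35 over the BPN aortas. BPL minus BPN was 0.69 ± 0.16 (adjusted p = 0.00352) and BPH minus BPL -0.47 ± 0.13 (adjusted p = 0.0171), with some overlap in both, and every strain mean lay below the array median. Summed brown fat markers ran from 6196 to 12230 in BPH, 7855 to 14080 in BPL and 1721 to 7913 in BPN aortas. Serpina9, first described in germinal centre B cells, averaged 3.83 ± 0.17 in BPH, 4.23 ± 0.19 in BPL and 4.22 ± 0.22 in BPN, and was lower in BPH than in BPN (-0.39 ± 0.11, adjusted p = 0.0197) and BPL (-0.39 ± 0.09, adjusted p = 0.00382). Serpina5 averaged 2.31 ± 0.22 in BPH, 2.13 ± 0.19 in BPL and 1.92 ± 0.12 in BPN, under the lower quartile in every strain, with BPH called above BPN (adjusted p = 0.0194). Leaving out BPN 13 or BPN 14 ended the call of Serpina9 against BPN, and BPN 11 or BPN 12, or a pseudocount of 16 (adjusted p = 0.0591), that of Serpina5. Serpinb5 (maspin), in 1 of its 2 probe sets, was called higher in BPH than in BPL (adjusted p = 0.0214), at a mean of 3.05 ± 0.39 in BPH, while the BPL mean lay under the lower quartile, and the second probe set was not called.

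Serpini1, neuroserpin, an inhibitor of tissue plasminogen activator, was bright in aorta and was higher in BPH than in BPL. Its brighter probe set ran over 10.45, 10.87 and 10.97 (lowest, median, highest) in BPH and 10.35, 10.51 and 10.77 in BPL aortas, with BPN at 10.62 ± 0.21 (SD, n = 5). BPH minus BPL was 0.29 ± 0.08 (1.23-fold, adjusted p = 0.0178), with overlapping arrays. In the second probe set it was 0.20 ± 0.08 (adjusted p = 0.154). Its target Plat, the activator itself, was higher in BPH than in BPL by 1.98 ± 0.10 and lower in BPL than in BPN, by a difference of -1.64 ± 0.11. Of 13 genes of plasminogen activation with a probe set, 1 rose and 2 fell in BPH against BPN, among them the urokinase gene Plau (-0.94 ± 0.19) and Thbs1, thrombospondin (-2.38 ± 0.23). In BPL 1 rose and 2 fell, with Thbs1 at -3.67 ± 0.23. Of all probe sets, 4.45% rose and 4.7% fell in BPH aortas, and 5.14% rose and 5.2% fell in BPL aortas, each against BPN.

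In heart, 3 members were called between BPH and BPN (6.52% of members, against 7.02% of all probe sets). Of these, 2 were higher and 1 lower (3.51% of all probe sets each way), and all 3 had arrays that did not overlap (5.83%). Between BPL and BPN 4 were called (8.7%, against 9.34%), 1 higher and 3 lower (4.14% and 5.2%), all 4 without overlap (7.07%). Between BPH and BPL 4 were called (8.7%, against 8.57%), 4 higher and 0 lower (4.59% and 3.97%), all 4 without overlap (6.58%). The largest difference was in Serpinb1c, a relative of the neutrophil elastase inhibitor Serpinb1a. It was at 6.16, 5.57, 6.26, 5.76 and 5.20 in BPH hearts, at 4.82, 4.54, 4.49, 4.46 and 4.98 in BPL and at 3.08, 3.62, 3.67, 3.13 and 3.98 in BPN. The 3 strains did not overlap, with BPH highest and BPN lowest. BPH was above BPN by 2.30 ± 0.19 (4.91-fold, adjusted p = 2.63e-07), BPL above BPN by 1.16 ± 0.19 (2.24-fold, adjusted p = 5.98e-04) and BPH above BPL by 1.13 ± 0.19 (2.19-fold, adjusted p = 7.31e-04). With a pseudocount of 16 the differences were 1.39, 0.59 and 0.80, all still called. The BPN mean lay below the array median. S100a9 was at 6.43 to 7.44 in BPH, 5.13 to 5.50 in BPL and 5.17 to 5.73 in BPN hearts. The other listed neutrophil transcripts, over the hearts of all strains, were S100a8 at 6.33 to 8.39 and Ngp at 4.32 to 4.87. Camp was at 3.33 to 3.80 and Elane at 2.92 to 3.49. The part of neutrophil transcripts in the Serpinb1c difference was not tested. In aorta, kidney and liver the means of Serpinb1c lay between 2.20 and 3.86 and no contrast was called, with BPH minus BPN in aorta at -0.67 ± 0.22 (adjusted p = 0.0514).

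Serpinb6a, a broad intracellular inhibitor known to act on cathepsin G, was lower in BPL hearts. It was at 9.65, 9.58, 9.74, 9.52 and 9.74 in BPH, at 9.10, 9.20, 9.27, 9.31 and 9.15 in BPL and at 9.71, 9.86, 9.81, 9.70 and 9.77 in BPN. BPL lay below both other strains in every heart. BPL minus BPN was -0.57 ± 0.06 (1.48-fold, adjusted p = 5.34e-06) and BPH minus BPL 0.44 ± 0.06 (1.36-fold, adjusted p = 8.64e-05). Serpinb6b was at 9.65, 9.57, 9.75, 9.72 and 9.49 in BPH, 9.07, 9.23, 9.19, 9.15 and 9.19 in BPL and 9.46, 9.30, 9.61, 9.41 and 9.33 in BPN. BPL was again lowest throughout, while BPH and BPN overlapped. BPH minus BPL was 0.47 ± 0.07 (1.38-fold, adjusted p = 1.13e-04) and BPL minus BPN -0.26 ± 0.07 (adjusted p = 0.021), which was not called on leaving out BPL 1, BPN 1 or BPN 3 (adjusted p up to 0.0599) or the 3 hearts rich in liver transcripts, nor in the joint fit (adjusted p = 0.241). Serpinb6a and Serpinb6b are close relatives, and whether their probe sets share signal was not tested. In aorta Serpinb6a was not called, at means of 10.24 in BPH, 10.17 in BPL and 10.33 in BPN.

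Serping1, which blocks the complement proteases C1r and C1s and plasma kallikrein, was lower in BPH and BPL hearts than in BPN hearts. It was at 10.46, 10.34, 10.41, 10.35 and 10.22 in BPH, at 10.52, 10.43, 10.58, 10.48 and 10.55 in BPL and at 10.71, 11.02, 10.66, 10.67 and 10.76 in BPN. All BPN hearts lay above the others, with BPN 2 highest. The difference from BPN was -0.41 ± 0.07 in BPH (1.33-fold, adjusted p = 7.37e-04) and -0.26 ± 0.07 in BPL (1.19-fold, adjusted p = 0.0267). The BPL call was lost without BPL 2, BPL 4, BPN 2 or BPN 5 (adjusted p up to 0.0679), without the 3 hearts rich in liver transcripts (adjusted p = 0.0807), with quantile normalisation (adjusted p = 0.0552) and with the replicate block (adjusted p = 0.0561). Summed macrophage markers also lay below those of BPN hearts in both strains, at 1824 to 2095 in BPH, 1817 to 1918 in BPL and 2349 to 3511 in BPN. Between BPH and BPL hearts the sums overlapped and did not follow Serping1. Of 6 macrophage markers, 4 were lower in BPH and 6 in BPL than in BPN. Their part was not tested. Of 7 complement proteases with a probe set, 0 rose and 1 fell in BPH (C1ra, -0.39 ± 0.11), and 0 rose and 1 fell in BPL (Masp1, -0.39 ± 0.10). Of all probe sets in heart, 3.51% were called each way in BPH, and 4.14% rose and 5.2% fell in BPL, each against BPN.

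Serpinh1 was not called in heart, at 10.61, 10.48, 10.76, 10.41 and 10.52 in BPH, 10.26, 10.37, 10.26, 10.50 and 10.52 in BPL and 10.53, 10.94, 10.40, 10.83 and 10.55 in BPN, with BPL minus BPN at -0.27 ± 0.10 (adjusted p = 0.104). Of 10 leukocyte and mast cell granule proteases, 5 fell and 0 rose in BPL hearts against BPN (5.2% and 4.14% of all probe sets). Those that fell included the mast cell carboxypeptidase Cpa3 (-1.33 ± 0.11), the tryptase Tpsb2 (-0.65 ± 0.10), the chymase Cma1 (-0.57 ± 0.09) and granzyme B, Gzmb (-0.57 ± 0.15). The list's median was -0.29 in BPL, beside 0.01 for all probe sets, and in BPH 1 rose and 0 fell. Of 8 cathepsins, 0 rose and 3 fell in BPH and 0 rose and 4 fell in BPL, with Ctsh at -1.19 ± 0.10 in BPH and -1.03 ± 0.10 in BPL. In BPH hearts against BPN, 3.51% of all probe sets were called each way. Summed mast cell markers were 238.4 to 288.7 in BPH, 189.1 to 205.9 in BPL and 260.9 to 287.8 in BPN hearts.

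**Figure D4:**
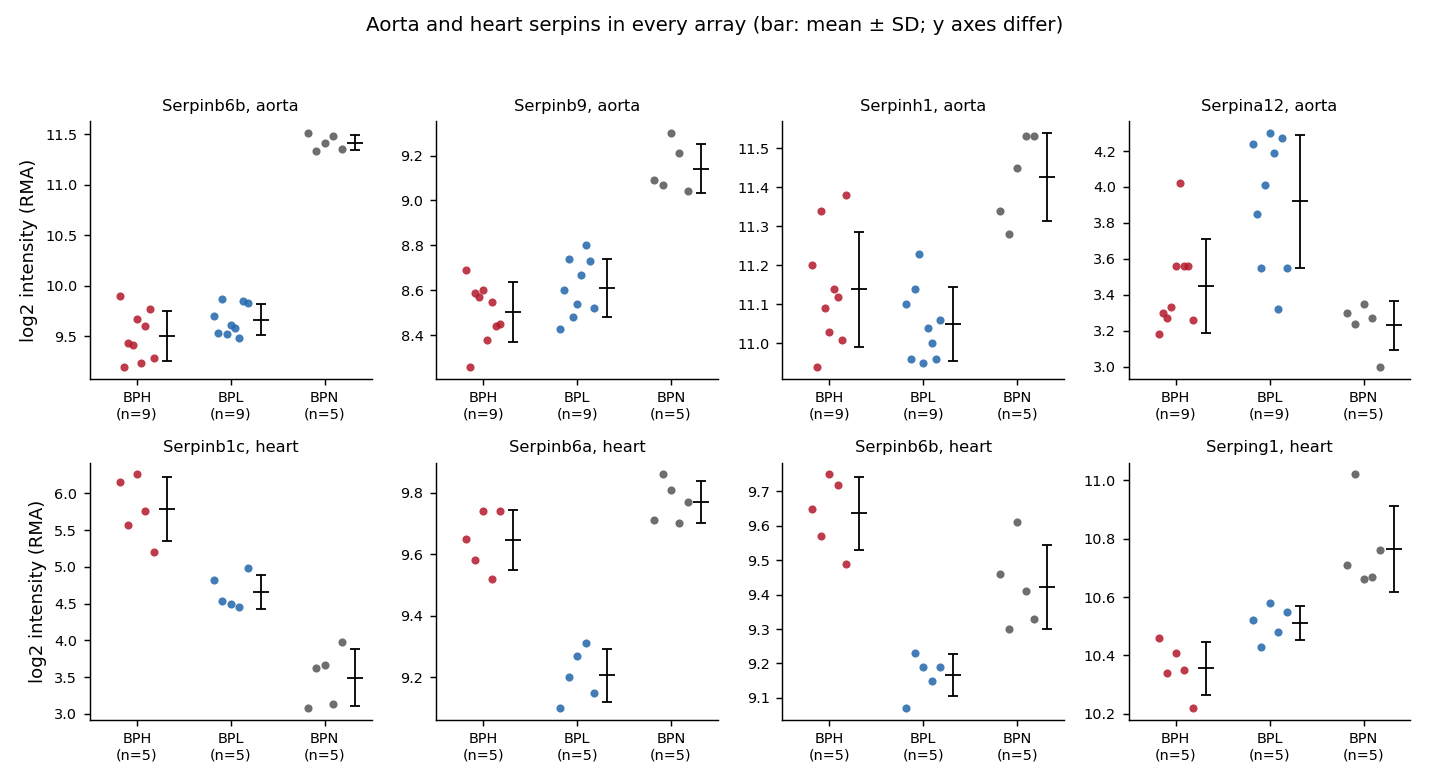
Log2 intensity of serpins in each aorta array (top row) and heart array (bottom row), by strain from BPH through BPL to BPN, with group mean and SD (bar); y axes differ. Serpinb6b and Serpinb9 are higher in every BPN aorta, and Serpinb1c separates the 3 strains in heart.

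In kidney, 7 members were called between BPH and BPN (15.2% of members, against 7.05% of all probe sets). Of these, 3 were higher and 4 lower (3.66% and 3.39% of all probe sets), and all 7 had arrays that did not overlap (6%). Between BPL and BPN 2 were called (4.35%, against 6.24%), 0 higher and 2 lower (3.22% and 3.02%), both without overlap (5.59%). Between BPH and BPL 4 were called (8.7%, against 6.33%), 2 higher and 2 lower (3.14% and 3.19%), 3 of them without overlap (5.71%). The largest difference was in Serpinb8, whose human counterpart inhibits the protease furin. It was at 4.89, 5.37, 4.68, 5.52 and 5.57 in BPH kidneys, at 5.29, 5.42, 5.12 and 4.67 in the 4 BPL kidneys and at 7.58, 6.91, 7.20, 7.23 and 7.10 in BPN. BPN kidneys lay above all others, and BPH and BPL overlapped. The difference from BPN was -1.99 ± 0.18 in BPH (3.98-fold, adjusted p = 1.13e-06) and -2.08 ± 0.19 in BPL (4.22-fold, adjusted p = 1.46e-06). Without the 3 kidneys holding adrenal transcripts these were -2.02 and -2.16. In aorta, where Serpinb8 averaged 6.34 ± 0.41 in BPH, 5.90 ± 0.37 in BPL (SD, n = 9 each) and 6.03 ± 0.41 in BPN (SD, n = 5), it was not called. Its heart means lay under the lower quartile in every strain. Of the 20 named neighbours of Serpinb8 on chromosome 1, 0 were called in kidney between BPH and BPN, where 7.05% of all probe sets were.

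Serpina1f, another antitrypsin-like gene of the chromosome 12 cluster, split the kidneys by strain. It was at 10.65, 10.56, 10.64, 10.69 and 10.74 in BPH kidneys, at 9.23, 9.23, 9.22 and 9.25 in BPL and at 9.63, 9.91, 9.98 and 9.75 in BPN kidneys 1, 2, 4 and 5, with BPN 3 just above BPN 4. The strains did not overlap, with BPH highest and BPL lowest. BPH was above BPN by 0.80 ± 0.07 (1.74-fold, adjusted p = 1.08e-06) and above BPL by 1.42 ± 0.08 (2.68-fold, adjusted p = 1.72e-09), and BPL minus BPN was -0.62 ± 0.08 (1.54-fold, adjusted p = 4.14e-05). In aorta, heart and liver its means were between 1.81 and 2.61, under the lower quartile.

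Of the remaining secreted serpins of kidney, Serpina10 and Serpina3b were lower in BPH than in both other strains, and Serpinf2 was higher in BPH than in BPN. Serpina10 was at 5.34, 5.33, 5.37, 5.22 and 5.12 in BPH, 6.33, 6.46, 5.95 and 6.07 in BPL and 5.92, 6.51, 5.72, 5.67 and 5.70 in BPN. Every BPH kidney was below every other kidney, with differences of -0.63 ± 0.14 against BPN (1.55-fold, adjusted p = 0.00967) and -0.93 ± 0.15 against BPL (1.9-fold, adjusted p = 7.20e-04). Serpina3b, of the antichymotrypsin-like group, was at 4.68, 4.86, 5.07, 4.70 and 4.70 in BPH, 5.24, 5.07, 5.37 and 5.37 in BPL and 5.50, 5.69, 5.53, 5.17 and 5.41 in BPN. BPH lay below BPN throughout and met the lowest BPL kidney. The differences were -0.66 ± 0.10 for BPH against BPN (1.58-fold, adjusted p = 4.14e-04) and -0.46 ± 0.11 against BPL (adjusted p = 0.0135), the last not called without BPL 4 (adjusted p = 0.0515). Serpinf2 was at 11.29, 11.23, 11.15, 11.21 and 11.09 in BPH, 11.09, 11.13, 11.17 and 11.08 in BPL and 10.91, 10.82, 10.74, 11.03 and 10.96 in BPN. BPH lay above BPN, by 0.30 ± 0.06 (1.23-fold, adjusted p = 0.00686). BPL kidneys also all lay above BPN kidneys, with BPL minus BPN at 0.23 ± 0.07 (adjusted p = 0.0641). BPH minus BPL was 0.08 and not called.

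Serpinb9, in its brighter probe set, was higher in BPH kidneys, at 6.22, 5.98, 5.91, 6.07 and 6.28, with BPL at 5.61, 5.35, 5.46 and 5.17 and BPN at 5.58, 5.38, 5.43, 5.81 and 5.61. All BPH kidneys lay above the rest. BPH was above BPN by 0.53 ± 0.10 (1.44-fold, adjusted p = 0.00261) and above BPL by 0.69 ± 0.11 (1.62-fold, adjusted p = 3.83e-04). In aorta it was lower in BPH than in BPN, and the difference between these tissues was not tested. The second probe set was under the lower quartile. Serpinh1 was at 9.02, 8.84, 9.10, 8.96 and 9.12 in BPH, 9.20, 9.29, 9.38 and 9.14 in BPL and 9.42, 9.61, 9.17, 9.60 and 9.34 in BPN. BPH was below BPN throughout, with a difference of -0.42 ± 0.09 (1.34-fold, adjusted p = 0.00551). Serping1 was not called in kidney, at 8.95, 9.33, 9.39, 9.32 and 9.42 in BPH, 9.63, 9.64, 9.22 and 9.27 in BPL and 9.36, 9.36, 9.28, 9.32 and 9.20 in BPN. Summed macrophage markers were 533.9 to 645.4 in BPH, 698.2 to 944.9 in BPL and 672.9 to 894.3 in BPN kidneys, and neutrophil markers 104.7 to 138.9 in BPH, 88.88 to 102.2 in BPL and 102.8 to 111.4 in BPN. Their part in these results was not tested.

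**Figure D5:**
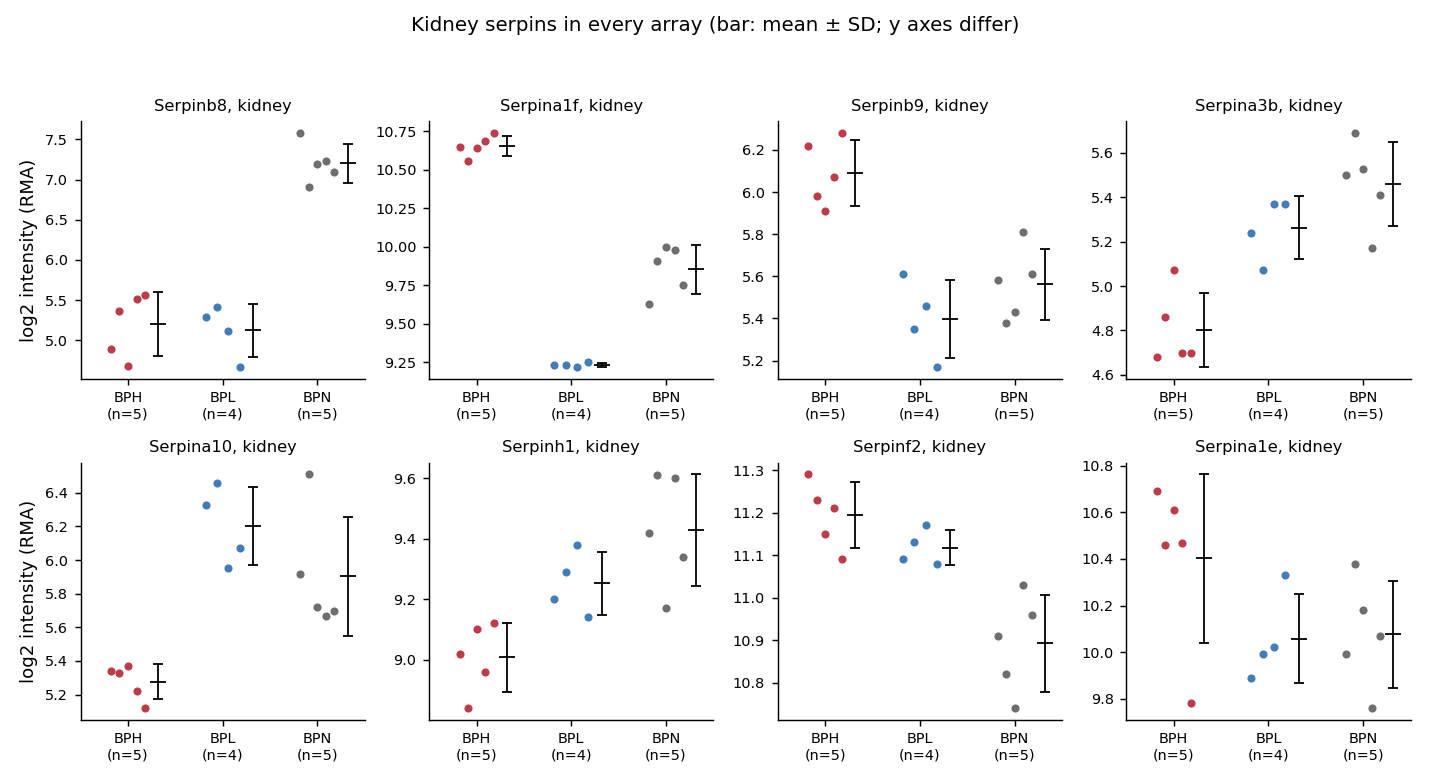
Log2 intensity of 8 serpins in each kidney array (points), by strain from BPH through BPL to BPN, with group mean and SD (bar); y axes differ between panels. Serpinb8 is low in BPH and BPL, Serpina1f is ordered BPH above BPN above BPL, and Serpina1e overlaps.

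Of 20 coagulation genes with a probe set, 3 rose and 0 fell in BPH kidneys against BPN: the fibrinogen chain gene Fga (0.94 ± 0.11), the protein C receptor Procr (0.91 ± 0.12) and Tfpi, the tissue factor pathway inhibitor (0.62 ± 0.10). The list's median was -0.04, beside -0.00 for all probe sets. Of 16 other protease inhibitors 4 rose and 2 fell, namely Itih2 (-1.56 ± 0.13) and Tfpi2 (-0.69 ± 0.09). Of 8 cathepsins, 1 rose and 3 fell in BPH, with Ctsl at -0.64 ± 0.06, and 1 rose and 1 fell in BPL, with Ctsl at 1.28 ± 0.07. Of all probe sets in kidney, 3.66% rose and 3.39% fell in BPH, and 3.22% rose and 3.02% fell in BPL, each against BPN.

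Whether a strain difference itself differed between heart, kidney and liver was tested in a joint fit. For BPH against BPN, 6 members were called between heart and kidney (2.3% of all probe sets), 5 between heart and liver (3.11%) and 9 between kidney and liver (2.65%). For BPL against BPN the counts were 2 (2.65%), 3 (3.92%) and 3 (3.04%). Serpinb8 in kidney, Serpinb1c in heart and Serpina11 in liver each had an effect that differed from that in both other tissues. For Serpinb8 the difference was 2.06 ± 0.26 for heart minus kidney and -1.99 ± 0.26 for kidney minus liver. For Serpinb1c it was 2.22 ± 0.28 for heart minus kidney and 2.41 ± 0.28 for heart minus liver, and 1.36 and 1.41 with a pseudocount of 16. For Serpina11 it was 1.45 ± 0.20 for heart minus liver and 1.58 ± 0.20 for kidney minus liver. Serpinb8 in heart, and Serpinb1c in kidney and liver, lay under the lower quartile in every strain. Serpina11 in heart and kidney had every strain mean below the array median. Serpina1e was called between kidney and liver, but not between heart and kidney (0.99 ± 0.41, adjusted p = 0.353) or heart and liver (-0.97 ± 0.41, adjusted p = 0.302).

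The 25 members called nowhere were Serpina3i, Serpina3j, Serpina6, Serpina16, Serpinb1b, Serpinb2, Serpinb3a, Serpinb3c, Serpinb3d, Serpinb6c, Serpinb6d, Serpinb6e, Serpinb7, Serpinb9b, Serpinb9c, Serpinb10, Serpinb11, Serpinb12, Serpinb13, Serpind1, Serpine3, Serpini2 and the second probe sets of Serpinb5, Serpinb9 and Serpini1. Their differences ran from -0.82 (Serpinb10, BPL against BPN in aorta, adjusted p = 0.0592) to 0.46 (Serpina6, BPL against BPN in heart). Of the 25, 8 had every strain mean in every tissue under the lower quartile. Calls of BPH against BPN were also counted by clade. Of the 14 probe sets of clade A, 3 were higher and 2 lower in liver, and 1 and 2 in kidney. In heart they were 1 and 0, and in aorta 2 and 1. Of the 24 probe sets of clade B, 0 were higher and 2 lower in liver, and 1 and 1 in kidney. In heart they were 1 and 0, and in aorta 0 and 2. Over all probe sets, 3.29% were higher and 3.85% lower in liver, and 3.66% and 3.39% in kidney. In heart 3.51% were called each way, and in aorta 4.45% and 4.7%.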

How the data were processed

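RNA from aorta, heart, kidney and liver was measured on single-colour custom Affymetrix arrays. The deposited values are linear intensities from 1.8 to 22648, made by the authors with RMA, per the submitters' processing notes. No background or detection call was used, the array's genome build is not given in the sources used here, and the number of arrays limits the precision. Intensities were turned to log2 with a pseudocount of 0. Of 38385 probe sets, 24478 had 1 symbol, 65 had several and 13842 were not listed in the platform's table. In each tissue limma 3.58.1 (R 4.3.3; lmFit and eBayes) was fitted to all 3 strains, with Benjamini-Hochberg adjustment over all 38385 probe sets and a threshold of 0.05. Differences between tissues came from 1 joint fit over the 12 tissue-and-strain groups. No covariate was used, and the labels give no batch.

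The members, gene lists and marker lists were chosen with earlier results of these data known. Values in every array (the lowest, median and highest in groups of 9) are given for members called against BPN without overlap, and for a fixed set of plasma and matrix serpins: Serping1 and Serpinh1 outside liver, and Serpina6, Serpina10, Serpind1 and Serpinf2 in liver. Genes that are no members were named from the lists, those called first. Within a tissue, same-numbered arrays of different strains had correlations of -0.29 to 0.28 between their deviations from the strain means. Across heart, kidney and liver, arrays of the same strain and number had a consensus correlation of 0.0059 in limma. Neither shows whether a number marks the same mouse in several tissues. On simulated data, changes of 1 on the log2 scale in 100 probe sets were recovered for BPH against BPN at 97% in liver, 100% in kidney, 99% in heart and 95% in aorta. Alternatives were another pseudocount, normalisation, dim filter, array weights, limma-trend, 1 probe set per gene, the joint fit, a replicate block and leaving out arrays. Python 3.11.15 with pandas 2.3.3 and matplotlib 3.10.9 made the summaries and figures.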

Additional observations from a re-analysis of the deposited data

Results flagged for a closer look

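In 7 of 108 groups of arrays tested for a single distant value, 1 array stood apart, where chance gives about 1 in 20. The gap to the nearest array, as a share of the group's range, was 0.539 for Serpina12 in aorta BPH 8, 0.537 for Serpinb5 in aorta BPH 11, 0.716 for Serping1 in heart BPN 2, 0.771 for Serping1 in kidney BPH 1, 0.726 for Serpina3f in liver BPL 3, 0.778 for Serpina1e in liver BPL 3 and 0.776 for Serpinb9d in liver BPH 1.

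Strain effects differed between tissues in the joint fit for the following genes, all values being log2 differences of 2 effects. For BPH against BPN, heart minus kidney was 2.22 for Serpinb1c, -0.83 for Serpina1f, 0.78 for Serpina3b, -0.39 for Serping1, -0.63 for Serpinb9 and 2.06 for Serpinb8. Heart minus liver was 0.79 for Serpinb6b, 2.41 for Serpinb1c, -1.0 for Serpina12, 1.45 for Serpina11 and -0.41 for Serping1. Kidney minus liver was 0.82 for Serpinb6b, -1.95 for Serpina1e, 0.71 for Serpina1f, -1.19 for Serpina12, -0.57 for Serpina3b, -1.06 for Serpina7, 1.58 for Serpina11, 0.58 for Serpinb9 and -1.99 for Serpinb8. For BPL against BPN, heart minus kidney was -0.39 for Serping1 and 2.14 for Serpinb8, heart minus liver was 1.04 for Serpinb1c, -1.01 for Serpina12 and 1.31 for Serpina7, and kidney minus liver was -0.72 for Serpina1f, 1.13 for Serpina7 and -1.75 for Serpinb8. Of these 28, 8 were not called on leaving out some single array. For BPH against BPN they were Serping1 between heart and kidney, Serpina12 between heart and liver, and Serpina3b and Serpina7 between kidney and liver. For BPL against BPN they were Serping1 between heart and kidney, Serpinb1c and Serpina12 between heart and liver, and Serpina7 between kidney and liver.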

How the results depend on the processing

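Of the 51 member calls between strains, 43 held under every alternative that fitted them, other than leaving out 1 array. Whichever array was left out, 40 held, and 39 held under both, while 0 changed direction. Serpinb5 for BPH against BPL in aorta, counted as held, was fitted in only 7 alternatives, against up to 9 for other aortic calls. The dim filter and 1 probe set per gene dropped its probe set. Of 28 calls between tissues, 27 held under the alternatives other than leaving out 1 array, and 20 held whichever array was left out. Serpina7 for BPH against BPN, kidney minus liver, was not called in the fit without aorta (adjusted p up to 0.0623). The joint fit of all groups called 12 members in aorta for BPH against BPN, 8 for BPL against BPN and 9 for BPH against BPL, the cause of which was not tested. Without the 3 hearts rich in liver transcripts, chosen after seeing the data, 2 members were called for BPL against BPN in heart. In liver BPL against BPN had 4 with limma-trend and 2 each with 1 probe set per gene, the replicate block and the joint fit, and 0 to 2 on leaving out 1 array. BPH against BPN in liver had 4 to 7, the 4 arising without BPH 2. Between heart and liver, BPH against BPN had 8 with array weights. Between heart and kidney, BPL against BPN had 4 with a pseudocount of 16, 4 without the aorta arrays, 4 with the replicate block in the fit without aorta, 6 with array weights and 1 to 3 on leaving out 1 array. The causes of these were not tested. Dim members near the lower quartile are the ones least measurable here, and Serpinf2 in kidney lost its call in the joint fit (adjusted p = 0.257).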
